A study of Mus musculus with 4 samples.

Results

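Aminoacyl-tRNA synthetases are the enzymes that join each amino acid to its transfer RNA (tRNA) before protein synthesis, and their genes were examined in a map of the DNA bound by XBP1s in mouse natural killer (NK) cells. XBP1s is the transcription factor made from spliced Xbp1 mRNA when the unfolded protein response is active. The list holds 36 genes, 16 whose symbols end in ars2 and whose products work in mitochondria and 20 others, called cytosolic here. The split reads the symbol alone. A gene with no ars2 form in the list, such as Gars or Kars, counts as cytosolic even if its product also works in mitochondria. The genes were chosen by their names, and their intervals were selected on 2 values of the deposited table, the nearest gene and a distance of at most 5000 bp between the interval's centre and that gene's transcription start site (TSS). By this rule 24 of the 4890 deposited intervals belong to 23 of the 36 genes. Because the rule reads the assignment itself, the counts below describe the members and were not tested.

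The cells were splenic NK cells of mice of strain C57BL/6, which the series' design text names Il15TgXbp1f/f, which received the cytokine IL-15 at 50 ng/ml over 1 h. They were fixed with 1% formaldehyde for 10 min, and the series holds 2 XBP1s immunoprecipitations and 2 inputs, all from this genotype and treatment. The labels name no untreated or Xbp1-deleted group, no Cre driver and no age, and do not say how many mice stand behind each library. The values analysed are 1 combined list of intervals with no column for any library and a score of 0 throughout, so no interval has a replicate error, the depth is unknown, and the inputs give no value to set beside an interval. The width of an interval, from 1 to 3413 bp over the whole list, is the only quantity per interval, and it does not measure signal. Of 9 NK cell marker genes, 3 (Il2rb, Prf1 and Gzmb) had an interval by the same rule, as did 0 of 5 B cell, 1 of 5 T cell and 1 of 5 myeloid markers. The share of all protein-coding genes with an interval was 15.9%, near that of the T cell and myeloid markers. Binding does not report expression, so this does not check the cell type.

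Each synthetase belongs to class I or class II, which differ in the fold of the catalytic domain. In the cytosol, several synthetases assemble with scaffold proteins into the multi-synthetase complex. Many cytosolic synthetase genes are also known targets of ATF4, the transcription factor downstream of the kinases PERK and GCN2, and ATF4 with its C/EBP partners binds a composite site known as the C/EBP-ATF response element (CARE). XBP1s is best known for binding the unfolded protein response element (UPRE), whose core holds ACGT, at genes of the secretory pathway.

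The sites shown first are the matches that set some synthetase promoters apart by sequence. RefSeq promoter windows (GRCm38.p6), of 250 bases before to 50 bases after a gene's start, were found for 27 of the 36 genes. The CARE letters searched were TGATGNAA, on both strands. They occurred in the windows of 5 synthetase genes. A match of each gene, though not every match, is shown in capitals with 11 bases on either side, 5′ to 3′ on the gene's strand, and positions count from 0 at the first transcribed base. The Aars site lies at chr8:111033840-111033869, plus strand, with its match at 9 to 16. The Gars site lies at chr6:55037960-55037989, plus strand, with its match at -30 to -23. The Iars site lies at chr13:49682126-49682155, plus strand (7 to 14). The Tars site lies at chr15:11399655-11399684, minus strand (-15 to -8), and the Yars site at chr4:129189895-129189924, plus strand (3 to 10).
Aars: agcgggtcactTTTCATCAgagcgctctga
Gars: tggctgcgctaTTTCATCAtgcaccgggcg
Iars: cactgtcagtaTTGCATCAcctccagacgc
Tars: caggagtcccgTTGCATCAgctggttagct
Yars: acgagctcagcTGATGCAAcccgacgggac

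All 5 of these windows overlapped an XBP1s interval, whereas among all protein-coding genes with the CARE letters in the window 62 of 723 did (8.58%). Synthetase windows without the letters also overlapped an interval in most cases, 13 of 22 (59.1%), against 16.5% of all windows without them. The interval held the whole of the match shown at Aars, Gars, Iars and Tars. At Yars it began inside the match. The 5 genes are all cytosolic and all on the list of 11 ATF4-responsive synthetases, of which 8 have a window, so the letters were in 5 of 8. They were in none of the 5 windows of other cytosolic synthetases and none of the 14 mitochondrial windows. Over all 17492 protein-coding genes with a window the share was 4.1%, and over the 2829 whose window overlapped an interval it was 2.2%. In the 250 bases before the start alone, the letters were in 3 synthetase windows and in 3.6% of all. These matches are descriptions of the letters, and binding of ATF4 was not measured in the data used here. The ATF4-responsive list came from background knowledge, and ATF4 binds CARE, so the list and the letters are not independent.

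The XBP1s motif was about as rare in the synthetase windows as in all windows. The full UPRE letters, TGACGTGG on either strand, were in none of the 27 synthetase windows, and in 0.8% of all windows and 2.1% of those that overlapped an interval. The shorter core within them, GACGTG, was in 2 synthetase windows (7.4%, against 8.1% of all windows and 17.0% of those overlapping an interval). Both were among the 18 synthetase windows that overlapped an interval. At Eprs the core lay at -8 to -3, inside the interval (chr1:185363025-185363052, plus strand). At Wars2 it lay at -241 to -236 (chr3:99140840-99140865, plus strand), outside the interval. The endoplasmic reticulum stress elements ERSE (CCAAT, 9 bases, CCACG) and ERSE-II (ATTGG, 1 base, CCACG) and the cyclic AMP response element TGACGTCA had no match in the synthetase windows. Their shares of all windows were 0.2%, 0.1% and 2.5%. A window covers only part of many intervals, so letters elsewhere in an interval were not searched.
Eprs: cgcatatttatGACGTGtcgtagcgtgc
Wars2: ctttacttcCACGTCtaaagagcaac

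To show starts with and without an interval, the 100 bases before the start are given for 3 genes whose window overlapped an interval (Tars, chr15:11399659-11399758, minus strand; Gars, chr6:55037901-55038000, plus strand; Mars1, chr10:127311787-127311886, minus strand) and for 2 whose window overlapped none (Sars, chr3:108445260-108445359, minus strand; Farsb, chr1:78488898-78488997, minus strand). They were chosen after their matches were seen. Capitals mark matches on either strand to CARE, the CCAAT box (CCAAT), the E-box (CACGTG) and the ETS site (CCGGAAG).
Tars: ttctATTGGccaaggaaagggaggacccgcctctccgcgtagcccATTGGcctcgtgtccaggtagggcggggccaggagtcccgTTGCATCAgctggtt
Gars: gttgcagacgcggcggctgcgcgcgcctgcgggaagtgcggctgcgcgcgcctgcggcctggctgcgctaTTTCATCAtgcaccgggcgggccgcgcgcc
Mars1: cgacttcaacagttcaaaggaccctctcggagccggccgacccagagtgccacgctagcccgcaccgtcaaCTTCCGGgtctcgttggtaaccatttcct
Sars: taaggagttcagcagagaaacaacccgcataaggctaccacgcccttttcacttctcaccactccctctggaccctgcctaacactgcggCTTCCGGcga
Farsb: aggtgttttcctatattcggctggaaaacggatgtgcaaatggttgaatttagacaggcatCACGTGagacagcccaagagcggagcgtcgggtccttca

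XBP1s intervals lay at most of the cytosolic synthetase genes and at fewer of the mitochondrial ones. Of the 20 cytosolic genes 16 had an interval (80.0%), as did 7 of the 16 mitochondrial genes (43.8%). Over both, the share was 63.9%, and over all 21900 protein-coding genes it was 15.9% (3487 genes). The difference between the compartments was smaller when intervals assigned to neighbouring genes were counted, as described below, and it was not tested.

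All 8 genes of the multi-synthetase complex had an interval. The bifunctional Eprs, which charges both glutamate and proline tRNAs, had 1033 bp (chr1:185362839-185363871). Mars1, the methionine enzyme, also had 1033 bp (chr10:127311348-127312380). The table names it Mars. These intervals were wider than the widest interval of 92.5% of the 3487 genes that have one. The other 6 genes had intervals nearer the middle of the range: the arginine gene Rars had 509 bp (63.3% of genes had less), the glutamine gene Qars 488 bp (60.5%), the aspartate gene Dars 470 bp (58.2%), the leucine gene Lars 413 bp (50.4%), the lysine gene Kars 349 bp (38.6%) and the isoleucine gene Iars 218 bp (11.6%). The median over the 8 genes was 479 bp.

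Rars was the only member with a second interval. It was 437 bp wide and centred at -4125 bp from the Rars TSS (negative is upstream), in exon 23 of 23 of Wwc1 (chr11:35838435-35838871). Every other interval at a member was centred within 437 bp of the TSS, the farthest being that of Vars, and no interval beyond 5000 bp was assigned to any member. The window of the rule therefore separates nothing close to its edge.

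Of the 3 scaffold genes of the complex, Aimp2 and Aimp1 had wide intervals at the promoter, of 888 and 833 bp, centred at 35 and -9 bp from the TSS. No interval was assigned to the third, Eef1e1.

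Outside the complex, 8 of 12 cytosolic synthetase genes had an interval, with a median width of 446.5 bp. The widest was at the valine gene Vars, with 1066 bp (chr17:35000812-35001877, wider than at 93.2% of genes). It was followed by the threonine gene Tars (601 bp), the asparagine gene Nars (574 bp), the histidine gene Hars (522 bp), the alanine gene Aars (371 bp) and Farsa, which encodes the catalytic subunit of the phenylalanine enzyme (320 bp). The glycine gene Gars (206 bp, chr6:55037835-55038040) and the tyrosine gene Yars (183 bp, chr4:129189908-129190090) had the narrowest cytosolic intervals, wider than at 8.3% and 5.4% of genes. Iars, Gars and Yars, the 3 narrowest cytosolic members, all hold the CARE letters at the start, while the other 2 genes that hold them had wider intervals, of 371 bp at Aars and 601 bp at Tars, the latter among the widest cytosolic members.

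The 4 cytosolic genes with no assigned interval were the cysteine gene Cars, the serine gene Sars, the tryptophan gene Wars and Farsb, which encodes the other subunit of the phenylalanine enzyme. The subunits of that 1 enzyme thus differed, with an interval over the start of Farsa and none at Farsb, where the nearest interval to a gene end was 48653 bp away. At Sars it was 116735 bp away and at Cars 7955 bp. Wars had an interval under a neighbour's name, given below.

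Among the 7 mitochondrial genes with an interval, the glutamate gene Ears2 had the widest of all members, 1467 bp (chr7:122066311-122067777, wider than at 97.6% of genes). The proline gene Pars2 had 616 bp and the tryptophan gene Wars2 569 bp. Fars2, the phenylalanine enzyme of mitochondria, had 447 bp, the cysteine gene Cars2 371 bp, the asparagine gene Nars2 307 bp and the tyrosine gene Yars2 215 bp. The 2 compartments overlapped in width: the mitochondrial intervals ranged from 215 to 1467 bp with a median of 447.0 bp, and the cytosolic ones from 183 to 1066 bp with a median of 479.0 bp. The median over all 3487 genes with an interval was 410.0 bp (interquartile range 281.0 to 625.0), and over the 23 synthetase genes it was 470.0 bp (334.5 to 587.5).

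**Figure D1:**
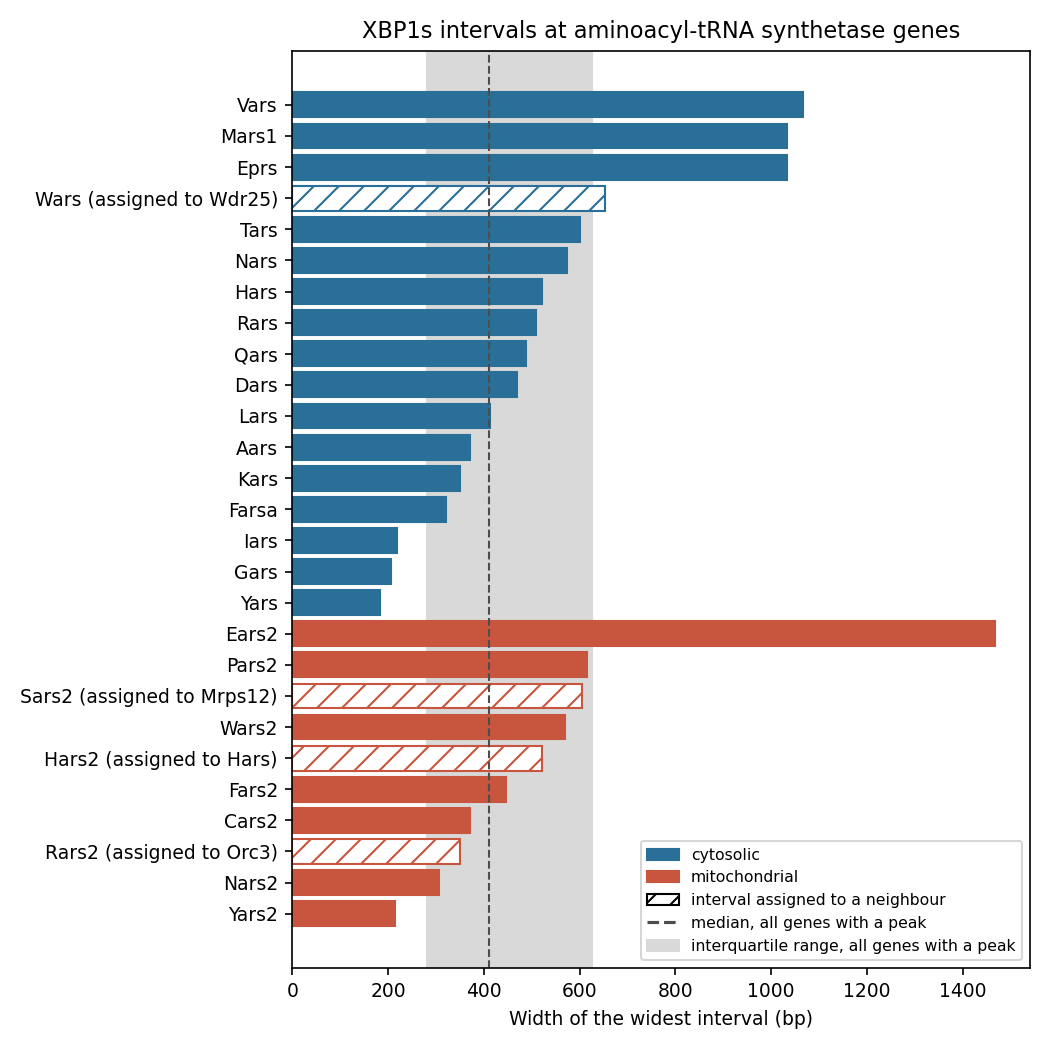
Width in bp (horizontal axis) of the widest interval at each synthetase gene, with cytosolic genes in blue, mitochondrial genes in red and hatched bars for intervals that the table assigns to a neighbouring gene. The dashed line is the median (410.0 bp) and the grey band the interquartile range over all 3487 genes with an interval; Ears2, Vars, Mars1 and Eprs lie far above the band.

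No interval was assigned to 9 mitochondrial genes, those for the alanine (Aars2), histidine (Hars2), isoleucine (Iars2), leucine (Lars2), methionine (Mars2), arginine (Rars2), serine (Sars2), threonine (Tars2) and valine (Vars2) enzymes. For 4 amino acids, cysteine, serine, phenylalanine and tryptophan, a cytosolic gene without an assigned interval could be set beside its mitochondrial counterpart. Cars2, Fars2 and Wars2 had an interval and Sars2 had none under its own name.

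The table names 1 gene per interval, and 4 of the 13 members without an assigned interval had an end inside an interval named for a neighbour. The start regions of these genes lie against those of other genes. Wars shares 24 bases with Wdr25, and the end of Wars next to Wdr25 lies inside the 653 bp interval assigned to Wdr25 (chr12:108893932-108894584). Rars2 shares 7 bases with Orc3, a subunit of the origin recognition complex, and starts inside its 351 bp interval (chr4:34614714-34615064). Sars2 begins 135 bp from Mrps12, which encodes a mitochondrial ribosomal protein, and starts inside its 604 bp interval (chr7:28741590-28742193). Hars2 overlaps Hars by 4 bases, and the 522 bp interval named for Hars (chr18:36782930-36783451) covers an end of both, so 1 interval lies at the start of a cytosolic and a mitochondrial synthetase.

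Counted by an interval of any gene within 1000 bp of either gene end, 26 of the 36 members had one (72.2%, against 17.5% of all protein-coding genes). They comprised 16 of 20 cytosolic (80.0%) and 10 of 16 mitochondrial genes (62.5%). Among the cytosolic genes Wars entered this count and Eprs left it, since the RefSeq model of Eprs starts upstream of the start that its interval covers. Aars stayed in the count only through a 296 bp interval assigned to its neighbour Ddx19b. Its own interval lay more than 1000 bp from either end of its RefSeq model. The 9 genes with no interval by either count were Cars, Farsb, Sars, Aars2, Iars2, Lars2, Mars2, Tars2 and Vars2, and for 8 of them, all but Cars, the nearest interval was 33420 to 148491 bp from a gene end.

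Intervals named for a synthetase can likewise lie at another gene. Of the 24 intervals, 4 (16.7%) held ends of 2 protein-coding genes, as did 318 of 3806 intervals at protein-coding genes (8.4%). These were the intervals of Ears2 (with Ubfd1), Fars2 (with Lyrm4, an iron-sulfur cluster assembly factor), Kars (with Terf2ip, a telomere protein) and Hars (with Hars2). Where both strands were in the promoter table, at Ears2, Fars2 and Kars, the 2 genes ran in opposite directions. The annotation placed the intervals of Yars, Vars, Ears2 and Hars at the promoters of the neighbouring genes S100pbp, D17H6S56E-5, Ubfd1 and Hars2. To which of the 2 genes such binding relates cannot be told apart from these data.

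The intervals sat on the start sites. Of the 24, 20 spanned the TSS (83.3%), against 62.5% of the 3806 intervals assigned to protein-coding genes within the same distance. The 4 that did not were the upstream interval of Rars and those of Dars, Cars2 and Yars, which began just downstream. Their centres had a median position of 56.0 bp from the TSS (quartiles -34.8 and 161.0), and over the 3806 intervals it stood at 49.0 bp (-96.0 and 176.0). In the authors' annotation 15 were in promoters, 12 cytosolic and 3 mitochondrial, counting those at a neighbour's promoter (Yars, Vars, Hars and Ears2). Another 5 were in intron 1 (Dars, Eprs, Rars, Pars2 and Wars2). The others were in exon 1 of Nars and of Cars2, the 5' untranslated exon of Nars2 and the last exon of Wwc1. The detailed annotation gave all 5 intronic intervals the label CpG (20.8% of the 24, against 9.7% of the 3806).

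**Figure D2:**
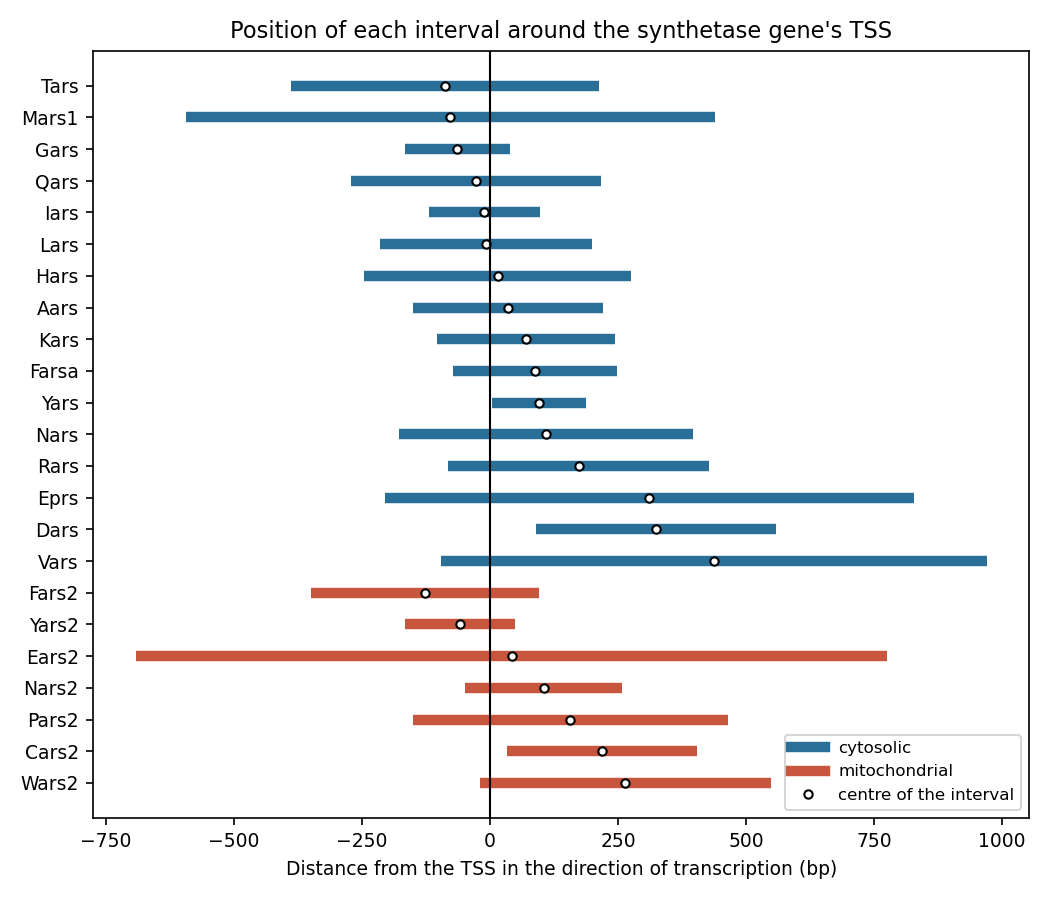
Extent of each interval within 1000 bp of the TSS of a synthetase gene, in bp from the TSS in the direction of transcription, drawn from the deposited width and distance (blue, cytosolic; red, mitochondrial; circles, centres). The bars cross the TSS at all genes shown but Dars, Yars and Cars2, and the bars of Eprs and Vars reach farthest downstream.

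The promoter windows were next compared by base composition, which the rule did not use. Of the 27 windows 18 overlapped an interval (66.7%), 10 of 13 cytosolic and 8 of 14 mitochondrial, against 16.2% of all 17492 windows. The GC share had a median of 59.0% in those 18 (49.0 to 71.7) and of 55.7% in the other 9 (48.3 to 63.3). The ratio of observed to expected CpG dinucleotides had medians of 0.79 and 0.71. The ranges overlapped almost entirely, from 0.54 to 1.24 and from 0.40 to 1.16. Over all protein-coding genes the medians were 56.3% and 0.58, and over those with an interval 62.0% and 0.85. Windows rich in GC and CpG overlapped an interval more often in general, in 29.4% of 7713 genes (GC of at least 55%, CpG ratio of at least 0.6). Among synthetases 13 of 18 such windows did.

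Mars2 and Vars2, which had no interval, had CpG ratios of 0.98 and 1.16, as high as those of Ears2 (0.98) and Eprs (1.16), which had 1 each. Windows with few CpG that overlapped an interval were those of Sars2 (0.54), Aars (0.55) and Qars (0.59). The members with and without an overlapping interval were not separated by composition.

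**Figure D3:**
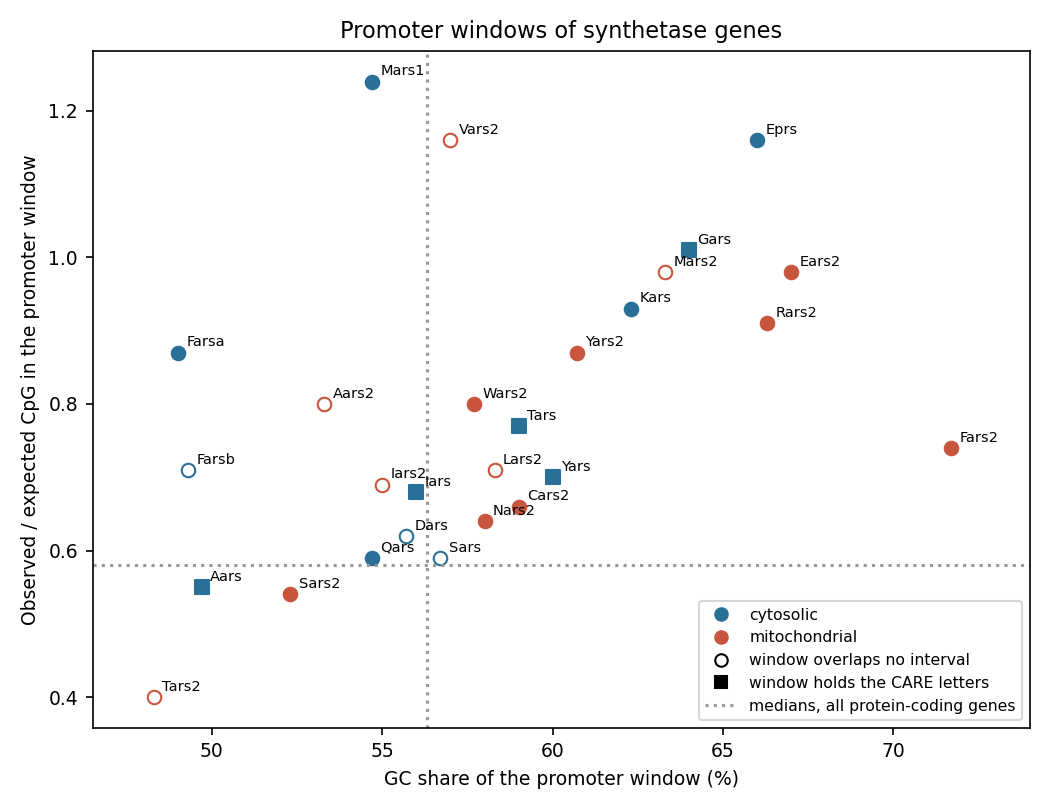
GC share in percent and observed over expected CpG in the promoter window of each of 27 synthetase genes (blue, cytosolic; red, mitochondrial; open symbols, no overlapping interval; squares, CARE letters in the window). Dotted lines are the medians of all protein-coding genes (56.3% and 0.58); filled and open symbols share most of the plot, and all 5 squares are filled.

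By structural class the members did not separate. Of the cytosolic genes 7 of 9 in class I and 8 of 10 in class II had an interval, with Eprs, which holds a domain of each class, counted apart. Among mitochondrial genes it was 4 of 9 and 3 of 7. The ATF4-responsive cytosolic genes had an interval in 8 of 11 cases (median 472.5 bp) and the other cytosolic genes in 8 of 9 (median 479.0 bp). The 3 ATF4-responsive genes without an assigned interval were Cars, Sars and Wars.

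Other genes of tRNA charging had intervals too. Of 14 genes of further charging and proofreading steps 7 had one, with a median width of 332.0 bp. They included Trnt1, which adds the CCA end to tRNAs (474 bp), and Prorsd1 (399 bp). Of 5 genes of the tRNA ligase complex, the machinery that also joins the exons of Xbp1 mRNA after its cleavage, Zbtb8os (497 bp) and Rtraf (203 bp) had an interval, and none was assigned to the ligase gene Rtcb itself.

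Of 10 elongation factor genes, which act after charging, 5 had an interval. The widest were at Eef1a1 with 1536 bp, Eef1g with 1076 bp and Eef1b2 with 890 bp. Eef1a1 encodes the cytosolic factor that delivers charged tRNA to the ribosome. Eef1g and Eef1b2 encode subunits of the complex that recharges this factor. In the ATF4 pathway 6 of 15 genes had an interval, with Atf4 itself (1733 bp), the PERK gene Eif2ak3 (1430 bp) and the serine synthesis gene Psat1 (631 bp) the widest. Cytosolic ribosomal protein genes had an interval in 39 of 72 cases (54.2%) and mitochondrial ones in 27 of 78 (34.6%), with medians of 431.0 and 330.0 bp. In the synthetases and in the ribosomal proteins alike the share was higher for the cytosolic set. No difference between these lists was tested.

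**Figure D4:**
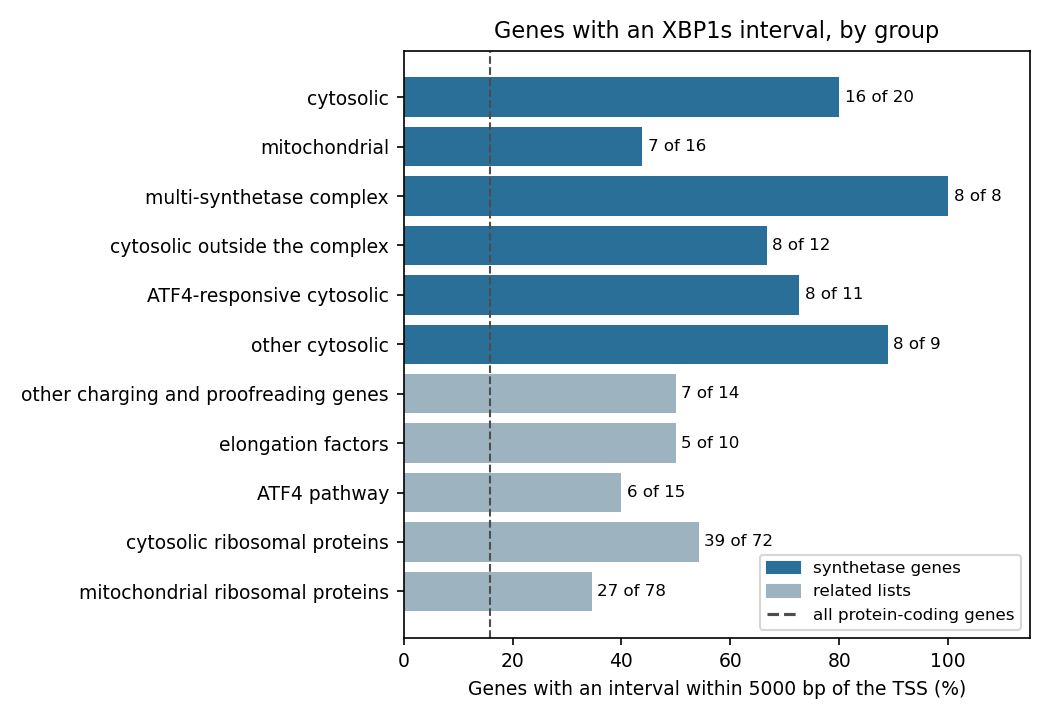
Percent of genes with an interval within 5000 bp of the TSS (horizontal axis), for groups of synthetases (dark) and related lists (light), with counts beside the bars and the share of all protein-coding genes (15.9%) as a dashed line. Each bar shown lies to the right of the line, and the multi-synthetase complex reaches 8 of 8.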

How the data were processed

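Per the labels' protocols, chromatin of fixed NK cells was precipitated with an antibody against XBP1s, 2% was kept as input, and libraries were read as pairs of 100 bp. Per the submitters' processing notes, the tools were HOMER (4.11 and 4.11.1), MACS2 2.2.7.1, the aligner Bowtie2 2.4.5, FastQC 0.11.9 and Trim Galore 0.6.7, and the builds mm10 and GRCm38. Per the file headers, the deposited table is HOMER's annotation of 1 set of intervals on mm10. Neither the threshold nor the way calls were combined is stated there. The score that the authors deposited is 0 for all 4890 intervals.

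Genes were matched by Entrez number to RefSeq (GRCm38.p6): all 36 members matched, with nearest genes of 4885 intervals. Widths are end minus start plus 1. Promoter windows came from RefSeq, where a gene with several windows counts once, and 10 motifs were searched on both strands. Ribosomal protein genes are symbols of Rpl, Rps, Mrpl or Mrps with a number and at most 1 letter, which keeps out kinases. All 36 members are named, and of each related list the widest 3 at most. Some items that these rules take in are left out of the text. Members and lists were chosen with earlier results of these data known. Lists of class, complex and ATF4 response come from background knowledge. No test was made, since the table holds no values per library. Counting and motif code was tested on simulated data. Scripts ran under Python 3.11.15 with matplotlib 3.10.9, SciPy 1.17.1, pandas 2.3.3 and NumPy 2.4.6.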

Additional observations from a re-analysis of the deposited data

How the results depend on the processing

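Counts of genes with an interval depended most on which intervals were used. With only the widest 50% of intervals, 14 of all, 10 of the cytosolic and 4 of the mitochondrial synthetase genes had one, while the share of all protein-coding genes fell to 9.03%. Counted over promoter windows, 10 cytosolic genes had an overlapping interval, since 5 of the 16 genes have no window and the interval of Dars lies outside its window. A window of 1000 bp, any distance, intervals of at least 200 bp, gene ends, or leaving out the interval in Wwc1 kept each count within 1.5 times. With intervals of at least 200 bp, which drops Yars, the median width was 479 bp over all members and 488 bp over the cytosolic ones. Within the 250 bases before the start alone, CARE was in 3 windows and the E-box in 3, against 5 each in the whole window. The promoter window overlap, the GC- and CpG-rich genes (28.6% with an interval by the main rule) and the count without the Wwc1 interval were chosen after the data were seen.

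No paired analysis was possible because the table has no values per library, and leaving out each replicate was not run for the same reason. The depth of the libraries is unknown, so an absent interval is not a measured absence of binding.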

Other observations

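Other promoter motifs of synthetase genes were counted in the same 27 windows. The ETS letters CCGGAAG were in 9 (33.3%), against 12.9% of all windows and 32.6% of those that overlapped an interval. Of the 18 synthetase windows that overlapped an interval, 7 held these letters. Of the 9, 5 were cytosolic (Farsa, Gars, Kars, Mars1 and Sars) and 4 mitochondrial (Cars2, Mars2, Rars2 and Sars2), and the windows of Sars and Mars2 overlapped no interval. At Cars2 the match lay outside the interval. The E-box CACGTG, the site of MYC and related factors, was in the windows of Aars, Iars, Tars, Farsb and Ears2 (18.5%, against 8.9% of all windows and 15.7% of those with an interval). It was in 4 of the 18 synthetase windows with an interval. Aars, Iars and Tars held both the E-box and the CARE letters.

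The CCAAT box was in 13 windows (48.1%, against 42.3% of all). The core of the site of NRF1, a regulator of mitochondrial genes, CGCATGCG, was in 2 windows (7.4%, against 2.8% of all windows and 6.3% of those with an interval), those of Vars2, with no interval, and Wars2. Thus 1 of the 18 synthetase windows with an interval held this core. At Wars2 the match lay outside the interval.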
